A study of Homo sapiens with 4 samples.

Results

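IGF2BP1, IGF2BP2, IGF2BP3, LIN28A, LIN28B, HMGA1 and HMGA2 are 7 genes of RNA-binding and chromatin-binding proteins. As an oncofetal group they are known for activity in the embryo and often again in tumours, and not every member is silent in adult tissue. They were taken by name, 7 of 19974 protein-coding genes on chromosomes 1 to 22 and X, with earlier results of these data known, so their values are a description and no test is given. Histone marks were mapped by chromatin immunoprecipitation and sequencing (ChIP-seq) in MCF10A, an immortalised human mammary epithelial line that does not form tumours. All cells were cultured in the medium MEGM, to which cholera toxin was added at 100 ng/ml, and no treatment was contrasted. The 4 libraries were H3K4me3, which marks active and poised promoters, H3K27me3, the mark of Polycomb repression, H3K79me2, laid down by DOT1L over the early part of transcribed genes, and input DNA, whose reads are not analysed here. With 1 library per mark there is no replicate error to set beside a value, and peak lists do not give the depth.

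IGF2BP1, IGF2BP2 and IGF2BP3 bind messenger RNAs and protect or localise them. LIN28A and LIN28B bind precursors of the let-7 microRNAs and block their maturation, while let-7 in turn represses LIN28B, HMGA2 and several IGF2BP messages. HMGA1 and HMGA2 bind AT-rich DNA through AT-hooks and bend it, and HMGA2 is known from mesenchymal growth and from invasive tumours.

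The active calls split the IGF2BP family, while both HMGA genes had them and both LIN28 genes lacked them. H3K4me3 peaks covered at least 25% of the 2 kb around the gene start at 4 of the 7 members, IGF2BP2, IGF2BP3, HMGA1 and HMGA2, where 66.3% of all protein-coding genes had such a call. The same 4 had H3K79me2 over at least 25% of the 5 kb inward from the start, against 49.9% of all genes. H3K27me3 was called around the start at 3 members, IGF2BP1, IGF2BP3 and LIN28A, against 7.46% of all genes. Over the record it covered at least 10% at IGF2BP1, LIN28A and LIN28B, against 8.94% of all genes. The pair of active calls with H3K27me3 over under 10% of the record, shown by IGF2BP2, IGF2BP3, HMGA1 and HMGA2, was found at 48.1% of all genes. H3K27me3 at the start and over the record with neither active call, shown by IGF2BP1 and LIN28A, was found at 2.71%. IGF2BP3 was the member with all 3 marks at its start. Limiting each list to peaks with q of 0.05 or below left the members of all 4 calls as they were, where 65.0% of all genes had H3K4me3, 42.6% H3K79me2, 4.70% H3K27me3 at the start and 3.97% H3K27me3 over the record. At −log10 q of at least 5, H3K4me3 stayed at 4 members (62.6% of all genes), H3K79me2 at IGF2BP2 (12.2%) and H3K27me3 at 0, at the start (1.09%) and over the record (0.531%). At fold of at least 5, H3K4me3 stayed at 4 (61.8%), H3K79me2 at 0 (3.42%), H3K27me3 at IGF2BP1 and LIN28A at the start (1.50%) and at LIN28A over the record (0.806%). The IGF2BP1, LIN28A and HMGA2 records have no strand in the annotation used, so for them the better-covered of the 2 record ends was taken.

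**Figure D1:**
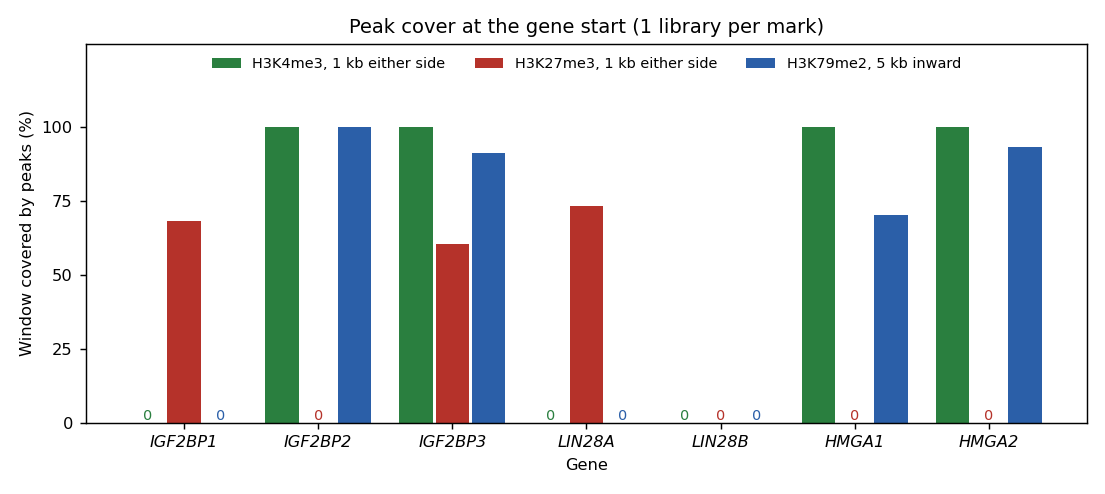
Share of the window covered by peaks (vertical axis, percent) at the start of each member (horizontal axis), with H3K4me3 and H3K27me3 within 1 kb of the start and H3K79me2 over the 5 kb inward. Bars are single libraries with no error; IGF2BP3 shows all 3 marks, LIN28B shows 0 for each.

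Promoter sequences from RefSeq (build GRCh38.p14, 250 bases before to 50 after a start site, 5′ to 3′) are shown for one start of each of the 4 members matched by symbol, so that the bases under H3K27me3 can be seen. Capitals are bases under an H3K27me3 peak. The intervals are chr3:185824993-185825292 on the minus strand for IGF2BP2, chr7:23470442-23470741 on the minus strand for IGF2BP3, chr6:34236623-34236922 on the plus strand for HMGA1 and chr6:104956857-104957156 on the plus strand for LIN28B, the inner of 2 start sites given for that gene.
IGF2BP2: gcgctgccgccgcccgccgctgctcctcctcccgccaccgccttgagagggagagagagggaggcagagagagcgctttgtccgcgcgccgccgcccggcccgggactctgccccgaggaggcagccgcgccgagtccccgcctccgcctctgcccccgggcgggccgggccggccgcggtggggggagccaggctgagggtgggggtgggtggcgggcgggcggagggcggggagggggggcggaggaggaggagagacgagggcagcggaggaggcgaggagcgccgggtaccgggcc
IGF2BP3: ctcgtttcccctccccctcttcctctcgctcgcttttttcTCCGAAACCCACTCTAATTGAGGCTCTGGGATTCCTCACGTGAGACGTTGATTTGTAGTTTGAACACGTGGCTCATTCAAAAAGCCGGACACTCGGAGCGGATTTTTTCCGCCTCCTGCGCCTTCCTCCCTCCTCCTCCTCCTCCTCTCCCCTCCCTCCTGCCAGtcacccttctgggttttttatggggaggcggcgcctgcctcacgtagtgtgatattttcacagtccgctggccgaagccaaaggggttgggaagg
HMGA1: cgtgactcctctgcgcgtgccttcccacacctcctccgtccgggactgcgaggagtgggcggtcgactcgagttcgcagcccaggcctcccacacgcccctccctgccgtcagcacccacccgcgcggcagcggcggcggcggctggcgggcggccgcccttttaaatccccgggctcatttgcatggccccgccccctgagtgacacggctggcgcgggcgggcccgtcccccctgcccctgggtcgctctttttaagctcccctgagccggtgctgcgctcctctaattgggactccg
LIN28B: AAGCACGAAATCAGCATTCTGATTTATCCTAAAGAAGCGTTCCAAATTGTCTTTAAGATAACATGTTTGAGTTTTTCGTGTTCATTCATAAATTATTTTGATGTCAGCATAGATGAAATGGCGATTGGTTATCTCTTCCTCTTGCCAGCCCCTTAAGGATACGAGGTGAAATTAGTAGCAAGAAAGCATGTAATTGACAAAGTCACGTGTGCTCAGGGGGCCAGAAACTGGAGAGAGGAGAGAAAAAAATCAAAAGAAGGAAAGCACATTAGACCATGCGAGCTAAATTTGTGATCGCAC
All 300 bases at IGF2BP2, at IGF2BP3 and at HMGA1 lay under H3K4me3, and 0 at LIN28B. H3K27me3 took bases 41 to 205 of the IGF2BP3 promoter, all 300 of the inner LIN28B promoter and 0 at IGF2BP2 or HMGA1. The peak over the IGF2BP3 bases was weak, 165 bp at 2.48-fold with q above 0.05. That over the inner LIN28B promoter was 5835 bp at 8.58-fold, with q below 0.05. CG dinucleotides numbered 38 at IGF2BP2, 33 at HMGA1, 17 at IGF2BP3 and 8 at the inner LIN28B start, beside a median of 14 over 34961 promoters. The outer LIN28B promoter held 37, more than 88.7% of all promoters. The letters GGGCGG or their complement CCGCCC were present at IGF2BP2, at HMGA1 and at the outer LIN28B start, and in 45.0% of all promoters. They were not in these 300 bases at IGF2BP3 or at the inner LIN28B start. TATAAA on either strand (complement TTTATA), held by 11.5% of all promoters, was in none of these 5 windows, and a second IGF2BP2 promoter further into the gene had it.

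Among the IGF2BP genes, IGF2BP2 on chromosome 3 (185643130 to 185825042) carried active marks along most of its length. A single H3K4me3 peak of 13694 bp at 14.8-fold over the caller's background spanned the start, the 58th widest peak of its list. H3K79me2 began 4.24 kb before the start and ran without a break for 99294 bp at 4.96-fold. Together 16 H3K79me2 peaks covered 85.3% of the record, a larger share than in 90.9% of all genes. Of these, 3 had q of 0.05 or below, among them the widest, of 99294 and 34026 bp. With the record cut into 10 equal parts, the cover was 100% in each of the first 5 and 25.9% in the last. A further 20 H3K4me3 peaks lay inside the record, the highest 5.49-fold from 93.7 kb inward, where the record of the antisense transcript IGF2BP2-AS1 lies as well. Counting the peak at the start, 7 of the 21 H3K4me3 peaks had q of 0.05 or below. H3K27me3 was limited to 2 short peaks of 165 and 188 bp at 2.416- and 2.096-fold, neither with a q of 0.05 or below.

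IGF2BP1 on chromosome 17 (48996558 to 49056145) showed the opposite pattern. H3K27me3 peaks numbered 37 over the record and the 10 kb on each side, 26 of them with q of 0.05 or below. The highest, 6.83-fold and 1492 bp wide, lay 18.7 kb into the record from its low end. Joining peaks across gaps of up to 3000 bp gave a domain of 34.5 kb, from 14.3 kb outside the low end to 20.2 kb inside, with 62.9% of its length in peaks. H3K27me3 covered 82.4% of the first of the 10 parts of the record and 2.77% of the last. No H3K4me3 peak lay at either end. There were 4 peaks of 2.37- to 3.32-fold from 17.5 to 36.0 kb inside, 2 of them with q of 0.05 or below. The first lay within the inner end of the H3K27me3 domain, and the next overlapped that end. The 4 H3K79me2 peaks were 1.91- to 2.06-fold, none with q of 0.05 or below, and covered 2.62% of the record.

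IGF2BP3 on chromosome 7 (23310209 to 23470491), on the minus strand, combined both. An H3K4me3 peak of 9918 bp at 11.5-fold ran from 4705 bp before the start to 5.21 kb inside. Inward, an H3K79me2 peak of 38506 bp at 2.93-fold began 449 bp after the start, and 34 such peaks covered 67.6% of the record. Of these, 5 had q of 0.05 or below, and peaks at that threshold covered 35.3%. Outward, H3K27me3 covered 86.6% of the 10 kb before the start, a larger share than at 99.97% of the 15812 genes with a strand. Its strongest peaks there were 9.24-fold over 3455 bp and 8.03-fold over 1385 bp, and the first of these was the 72nd widest of its list. IGF2BP2 and HMGA1 had 0% in the same upstream window and LIN28B had 20.96%.

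The marks changed places within a few kilobases. In bins of 1000 bp, H3K27me3 peaks touched 10 of 10 bins upstream and 3 of 10 inward, while H3K79me2 touched 3 of 10 upstream and 10 of 10 inward. From the outer end of the long H3K79me2 peak to the nearest H3K27me3 peak with −log10 q of at least 5 was 2.63 kb. Between them, and under the same H3K4me3 peak, lay weaker H3K27me3 peaks of 2.48- to 3.52-fold. Of the H3K4me3 peak's bases, 44.4% also lay under H3K27me3. Bases under both H3K27me3 and H3K79me2 came to 2777 over the record and its flanks, out of 10658 under H3K27me3 and 119389 under H3K79me2. An H3K79me2 peak of 1799 bp and 2.27-fold, lying upstream with a q above 0.05, held part of them. With q of 0.05 or below in both lists the shared bases fell to 178. The joined H3K27me3 domain was 15.5 kb long, from 1.02 kb inside the gene to 14.5 kb upstream. It held the pseudogene LOC389473, and the next protein-coding record upstream, TRA2A, began 34.3 kb from the start. Beyond the first kilobase, the record held 7 H3K27me3 peaks, 0 of them with q of 0.05 or below.

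**Figure D2:**
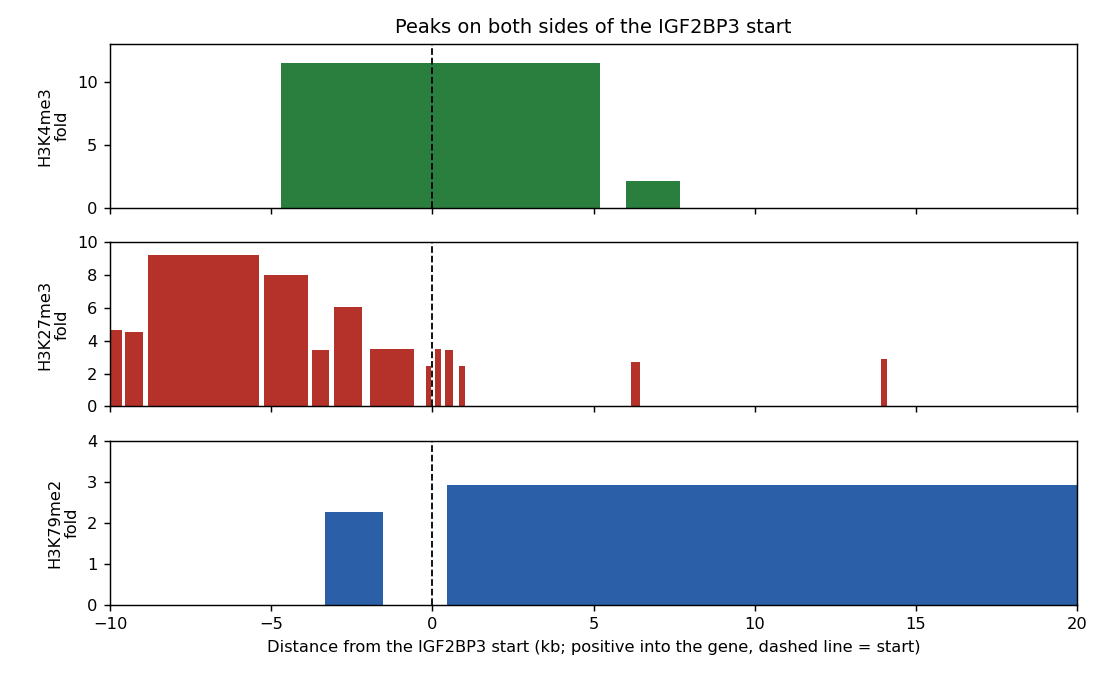
Peaks from 10 kb upstream to 20 kb inside IGF2BP3, with distance from the start in kb (horizontal axis) and the authors' fold over background (vertical axis, a separate scale for each mark). H3K27me3 reaches 9.24-fold upstream, H3K79me2 runs inward from 0.449 kb, and the 11.5-fold H3K4me3 peak bridges both.

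Across all genes this arrangement was uncommon. IGF2BP3 was examined for H3K27me3 beside H3K79me2 with earlier results of these data known, so the shares below describe it and test nothing. H3K4me3, H3K79me2 and H3K27me3 were all called at 36 of 19974 genes (0.180%), IGF2BP3 included. For genes without a strand the better-covered end was taken for each mark, so their calls need not lie at the same end. H3K27me3 over at least 25% of the 10 kb upstream was found at 521 genes with a strand (3.29%), and 48 (0.304%) had it together with H3K79me2 inward. The genes most like IGF2BP3 in H3K4me3 at the start and in H3K27me3 and H3K79me2 over the record, among genes of 0.5 to 2 times its length, were SESN1, LRCH1, PAPSS1, COP1 and BMPR1A. Their distances over these 3 measures were 0.818 to 1.02 percentage points. They had H3K27me3 over 0% of the start window, against 60.3% at IGF2BP3, a measure that did not enter the distance. The median over all genes was 0% as well, so the value of these 5 genes is the usual one. The low end of IGF2BP3 overlaps the record of MALSU1, and the 4.26-fold H3K79me2 peak and the 12.8-fold H3K4me3 peak beyond that end lie over MALSU1.

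Both LIN28 genes lacked active marks. LIN28A on chromosome 1 (26410817 to 26429728) had 0 H3K4me3 and 0 H3K79me2 peaks over its record. Its 10 H3K27me3 peaks there, up to 6.16-fold, covered 36.7%, a larger share than in 98.3% of all genes. They were concentrated towards the low end, with 92.0%, 93.9% and 86.1% of the first 3 of 10 parts covered and 0% of the last 3. The 19.2-fold H3K4me3 peak within 10 kb of the high end, and the 2.72-fold H3K79me2 peak with it, lie over DHDDS, a gene of dolichol synthesis, and LOC124903883.

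LIN28B on chromosome 6 (104937026 to 105083332) had H3K27me3 spread over its record. There were 133 H3K27me3 peaks, 65 with q of 0.05 or below, covering 37.2% of the record. The widest, 5835 bp at 8.58-fold, was the 7th widest of the whole H3K27me3 list and lay 14.9 to 20.7 kb from the low end, over the inner start site whose promoter is printed above. The outer start site of the promoter table, 3.94 kb from the low end, lay in a stretch of 3178 bp free of H3K27me3 peaks. It had H3K27me3 over 16.0% of the window within 1 kb, against 92.8% at the inner site. Neither site had H3K4me3 or H3K79me2 within 1 kb. Its single H3K4me3 peak, 170 bp at 1.93-fold, and its 3 H3K79me2 peaks had q above 0.05. The record end gave 0% for every mark within 1 kb, so LIN28B has a call at the start only when the sites of the promoter table are used or H3K27me3 peaks are joined across 3000 bp. Over the 10 parts of the record, cover reached 67.9% in the second and 70.1% in the seventh, and fell to 4.93% in the last. Both LIN28 genes thus had a like share of the record under H3K27me3, at the low end in LIN28A and along the record in LIN28B.

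The HMGA genes carried active marks and 0 H3K27me3 peaks over their records. HMGA1 on chromosome 6 (34236873 to 34246231) is a short gene with an H3K4me3 peak of 4086 bp at 18.0-fold over its start. An H3K79me2 peak of 3505 bp at 2.87-fold followed from 345 bp inside, and with a second, shorter one covered 44.2% of the record. The shorter peak, of 634 bp, had q above 0.05. The start lies inside LOC124901225, so the H3K4me3 there is not HMGA1's alone by position, and the 13.04-fold peak beyond the other end lies over SMIM29.

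HMGA2 on chromosome 12 (65824460 to 65966291) had a single H3K79me2 peak of 138750 bp at 4.15-fold, the 27th widest of its list. It covered 97.8% of the record, a larger share than in 96.8% of all genes. The cover was 100% from the second to the ninth of the 10 parts. An H3K4me3 peak of 13815 bp at 15.2-fold spanned the low end, the 54th widest of its list, 4 ranks above that of IGF2BP2. A further 17 H3K4me3 peaks lay inside, the highest at 5.45-fold and 4652 bp over the record of HMGA2-AS2. The low end overlaps RPSAP52, a transcribed pseudogene, and H3K79me2 covered 75.8% of the 10 kb outside that end in 3 peaks of 2.08- to 2.43-fold. Signal at that end cannot be divided between HMGA2 and RPSAP52.

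**Figure D3:**
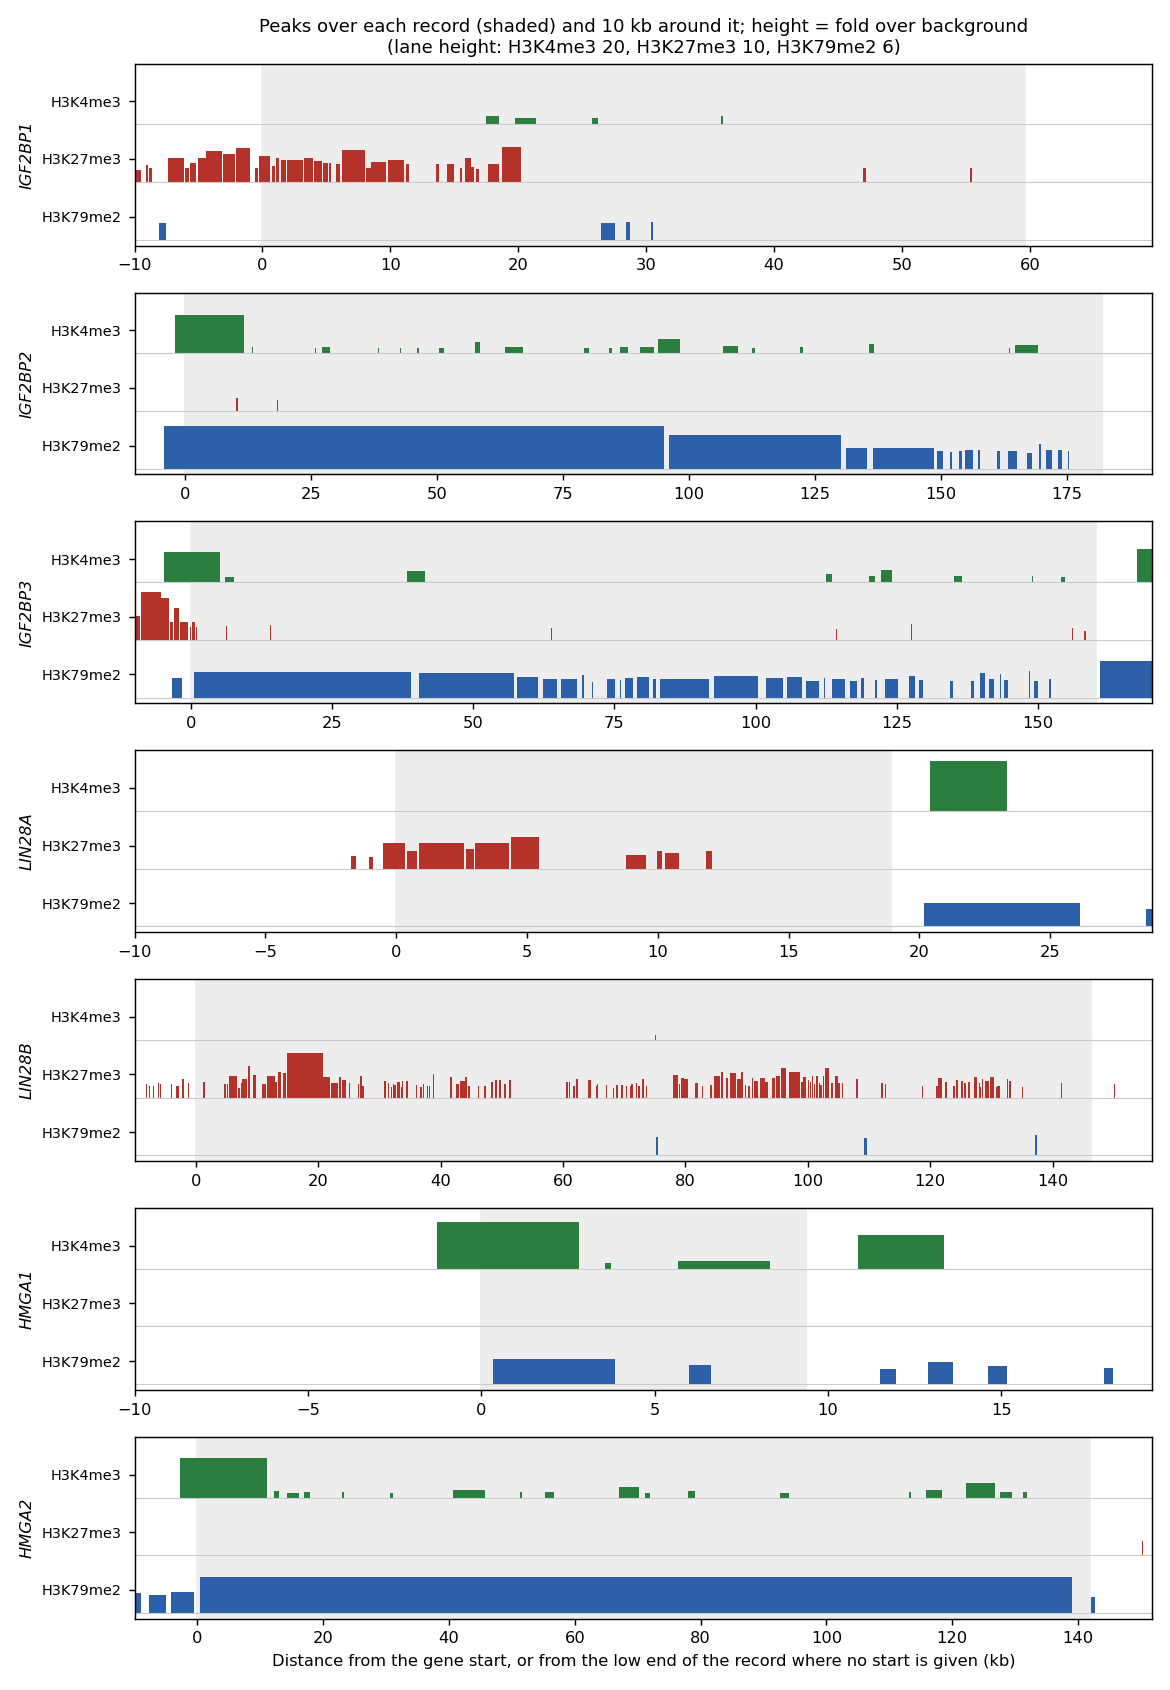
All peaks of the 3 lists over the 7 records (shaded) and 10 kb on each side, with distance in kb from the start, or from the low end where no strand is given. Bar height is fold, with lanes drawn to 20, 10 and 6 for H3K4me3, H3K27me3 and H3K79me2; the 138750 bp H3K79me2 peak of HMGA2 and the 5835 bp H3K27me3 peak of LIN28B stand out.

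**Figure D4:**
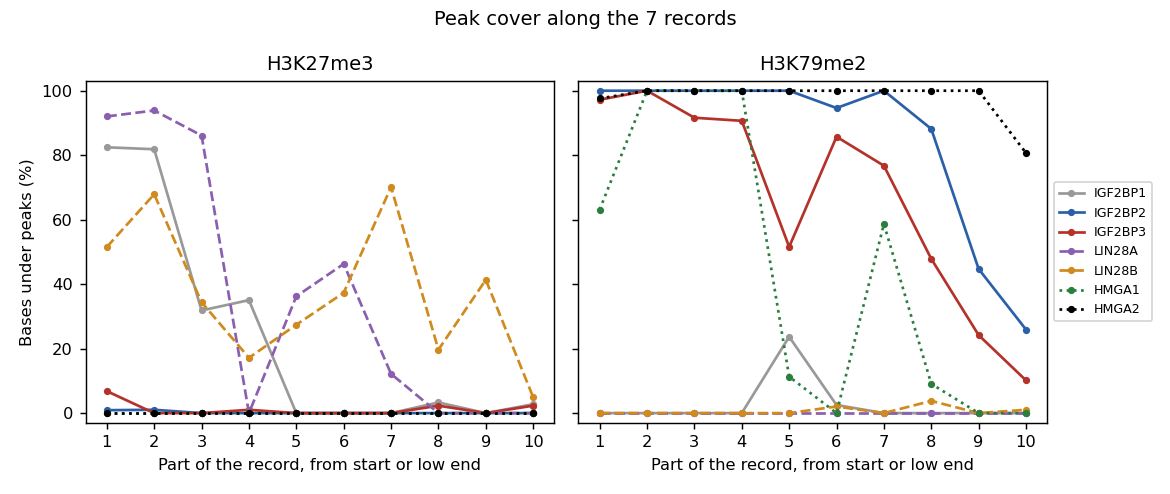
Bases under H3K27me3 (left) and H3K79me2 (right) peaks, in percent, in each of 10 equal parts of the record from the start or low end, 1 line per gene. H3K79me2 stays at 80.7% in the last part of HMGA2, against 25.9% in IGF2BP2 and 10.2% in IGF2BP3.

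By share of the record under H3K79me2 the order was HMGA2 (97.8%), IGF2BP2 (85.3%), IGF2BP3 (67.6%), HMGA1 (44.2%), IGF2BP1 (2.62%), LIN28B (0.687%) and LIN28A (0%), with a median over all genes of 12.03%. For H3K27me3 it was LIN28B (37.2%), LIN28A (36.7%), IGF2BP1 (23.7%), IGF2BP3 (1.25%), IGF2BP2 (0.194%) and both HMGA genes at 0%, beside a median of 0.188%. Without replicates, whether neighbours in either order differ cannot be tested. The nearest member to the 10% threshold for the record was IGF2BP1 inside it and IGF2BP3 outside it. H3K27me3 was called as narrow peaks and the other marks as broad peaks, so shares are compared between genes within a mark, not between marks.

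**Figure D5:**
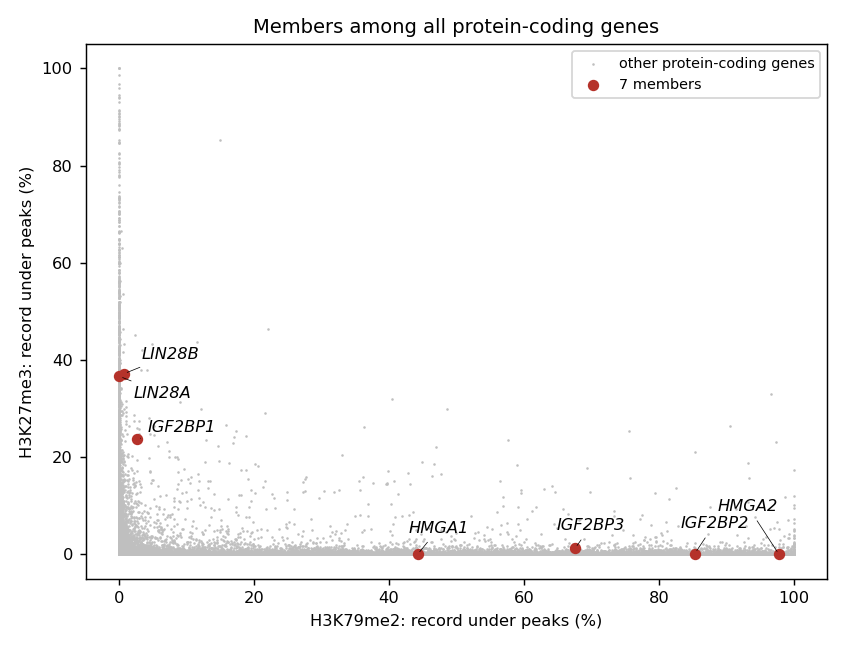
Share of the record under H3K79me2 (horizontal axis, percent) and H3K27me3 (vertical axis, percent) for the 7 members (red) and all other protein-coding genes (grey). LIN28A, LIN28B and IGF2BP1 lie along the vertical axis and the other 4 along the horizontal axis.

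The let-7 family, which LIN28A and LIN28B hold back, shares its seed. The mature sequences from RefSeq (GRCh38.p14) are shown with bases 2 to 8, the seed, in capitals, since this is the part that pairs with messages such as those of LIN28B and HMGA2.
let-7a-5p: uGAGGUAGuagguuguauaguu
let-7b-5p: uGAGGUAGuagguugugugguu
let-7c-5p: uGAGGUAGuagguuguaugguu
let-7d-5p: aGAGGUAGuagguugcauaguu
let-7e-5p: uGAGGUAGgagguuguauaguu
let-7f-5p: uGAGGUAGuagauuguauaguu
let-7g-5p: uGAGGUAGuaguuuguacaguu
let-7i-5p: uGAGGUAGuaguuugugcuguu
miR-98-5p: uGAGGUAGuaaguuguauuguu
All 9 sequences carry 1 seed. They come from 12 precursor genes, and 7 of the hairpins lay wholly under an H3K79me2 peak, against 22.4% of 1911 microRNA records: MIRLET7A1, MIRLET7D and MIRLET7F1 under 1 shared peak of 4.69-fold, MIRLET7G at 4.55-fold, MIRLET7I at 3.92-fold, MIRLET7E at 3.42-fold and MIRLET7A2 at 3.25-fold. Within 1 kb of a hairpin, H3K4me3 was called at MIRLET7I (20.1-fold), MIRLET7E (19.997-fold), MIRLET7A1 and MIRLET7F1 (12.6-fold, 1 peak), which is 4 of 12, against 20.7% of microRNA records. MIR98 on chromosome X lay wholly under H3K27me3 (1.36% of microRNA records), and it and its neighbour MIRLET7F2 had 17 and 18 such peaks within 10 kb, up to 4.18-fold, with 0 H3K4me3. Each also had 4 H3K79me2 peaks within 10 kb, up to 2.64-fold, over 16.7% of that window at MIR98 and 21.4% at MIRLET7F2. The H3K27me3 call near MIRLET7F2 was lost with q of 0.05 or below, and that at MIR98 was not. MIRLET7A3, MIRLET7B, MIRLET7C and MIRLET7F2 had 0% of the hairpin under each mark. These hairpins lie in longer host transcripts, so the marks are those of the place and not of the microRNA alone.

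Genes that act with the members were taken as lists chosen from general knowledge. A list of 10 genes covered let-7 maturation and turnover, with the target gene TRIM71 included. Of these 10, 8 had H3K4me3 at the start, 9 had H3K79me2 inward and 0 had H3K27me3 at the start. Among all genes, 66.3%, 49.9% and 7.46% had these calls. The median cover was 100% for H3K4me3 (all genes 77.6%) and 89.1% for H3K79me2 (all genes 24.4%). Among genes with H3K4me3 over 100% of the start window, the highest folds were at the Dicer partner gene TARBP2 (18.8-fold), the nuclease gene DROSHA (18.3-fold), the export receptor gene XPO5 (15.5-fold) and DGCR8 (15.1-fold). DIS3L2 had 27.1-fold over 97.3% and DICER1 18.2-fold over 91.5%. AGO2, DICER1 and DIS3L2, the exonuclease that degrades LIN28-bound let-7 precursors, had H3K79me2 over 100% of the inward window and DGCR8 over 97.6%. AGO2 lacked H3K4me3 at a record end but had a 23.7-fold peak within its record or flanks. TRIM71, itself a known let-7 target, was without any of the 3 calls.

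Of 16 known let-7 or IGF2BP target genes, 14 were called for H3K4me3, 14 for H3K79me2 and 2 for H3K27me3 at the start. The shares of all genes were 66.3%, 49.9% and 7.46%. With peaks limited to q of 0.05 or below, H3K79me2 was called at 12, against 42.6% of all genes. Among those with H3K4me3 over 100% of the start window, the highest folds were at CDK6 (20.2-fold), IGF1R (19.3-fold), ARID3B (19.2-fold) and CCND1 (18.3-fold). INSR, the insulin receptor gene, had 18.8-fold over 95.0%. CDK6, CCND1 and CDC25A had H3K79me2 over 100% of the inward window and THBS1 over 99.2%. IGF2, the growth factor whose message gave the IGF2BP family its name, had H3K27me3 over 78.2% of an end and 64.2% of its record, and neither active call. H19, its imprinted neighbour, had none of the 3 calls. CCND2, the cyclin D2 gene, had all 3 calls, with H3K27me3 over 85.5%, H3K4me3 over 100% and H3K79me2 over 57.8% of their windows. Its record has no strand, so these calls need not lie at the same end.

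Of 8 other oncofetal genes, 3 were called for H3K4me3, 2 for H3K79me2 and 0 for H3K27me3 at the start. The shares of all genes were 66.3%, 49.9% and 7.46%. The imprinted gene PEG10 (12.6-fold) and TPBG, the 5T4 antigen gene (14.8-fold), had both active calls, and GPC3, a glypican gene, had H3K4me3 at 6.10-fold over 41.9% of the window. H3K27me3 covered at least 10% of the record at 2 of the 8, CEACAM5 (33.6%) and GPC3 (16.4%), against 8.94% of all genes. With q of 0.05 or below 1 such call was left, against 3.97% of all genes. AFP, SALL4, DLK1 and DPPA4 had 0 calls.

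As a check of the cell line, 7 of 8 basal epithelial marker genes had H3K4me3 at the start (66.3% of all genes) and 7 had H3K79me2 (49.9%). TP63 had neither at its outer record end, but 14 H3K4me3 peaks lay in its record, up to 9.53-fold in the record or flanks, and 22 H3K79me2 peaks covered 22.1% of the record. Of 9 marker genes of luminal, blood, endothelial and fibroblast cells, 0 had H3K4me3 at the start and 1 had H3K79me2 (PECAM1). H3K27me3 was called at the start of 1, DCN, against 7.46% of all genes. That call was lost with q of 0.05 or below. H3K4me3 peaks lay in the record or flanks at 7 of the 9, as at TP63. ESR1 had 11 in its record, up to 8.11-fold in the record or flanks. PECAM1 had 6, over 17.0% of its record. CDH5 had 0 in its record and up to 7.70-fold in its flanks. PGR and CD3E had 0 in the record or flanks.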

How the data were processed

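Peaks came from ChIP-seq of MCF10A with Bowtie2 2.3.1, MACS2 2.1.1 and build hg38, per the submitters' processing notes. The control, the treatment of duplicates and other settings are not given in the sources used here. Peaks were called per library by the authors, with p of 0.05 in the peak names as deposited. The authors' fold is a ratio of peak to background signal from the caller, and was used within its own list. The deposited −log10 p and −log10 q are the caller's p-value and q-value per peak. The deposited integer score was not used. Other deposited columns used are chromosome, start and end.

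Covered shares were computed with Python 3.11.15 (pandas 2.3.3, numpy 2.4.6), checked on simulated intervals. Genes and promoters came from RefSeq tables of GRCh38.p14, the same build. Of 19974 genes, 15812 had a strand, and either end was used for the rest. A peak belonged to a window from 1 bp. Members and lists were chosen with earlier results of these data known. Named genes were the members, the records within 10 kb, the 5 genes most like IGF2BP3, the let-7 precursors and up to 4 called genes per mark and list with their exceptions. A planned comparison of proteins was not made, and 1 gene of the target list is not reported here. With 1 library per mark no test was run, and depth is unknown. Alternatives were stricter peaks, other windows, shares and ends, joined H3K27me3 peaks and, chosen after seeing the data, every start of the promoter table.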

Additional observations from a re-analysis of the deposited data

How the results depend on the processing

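With q of 0.05 or below, the 4, 4, 3 and 3 members called for H3K4me3, H3K79me2, H3K27me3 at the start and H3K27me3 over the record were the same genes. H3K4me3 stayed at 4 members under each of its alternatives. At −log10 q of at least 5, H3K79me2 was called at 1 member, IGF2BP2 (12.2% of all genes), and H3K27me3 at 0 at the start (1.09%) and 0 over the record (0.531%). At fold of at least 5, H3K79me2 was called at 0 members (3.42%) and H3K27me3 over the record at 1, LIN28A (0.806%). With 1 bp as the minimum, 5 members had H3K27me3 over the record (52.3% of all genes), and with 50%, 0 had it (0.826%). Joining peaks across 3000 bp (13.3% of all genes), or using every start of the promoter table (8.23%), added LIN28B to the H3K27me3 calls at the start, 4 members in each case. The H3K27me3 share of the IGF2BP3 record was 0.265% with q of 0.05 or below, 2.73% with joined peaks, and 0% at the 2 stricter thresholds, of q and of fold. The H3K79me2 share was 35.3% with q of 0.05 or below and 0% at the other 2 thresholds. Bases shared by these marks were 178 with q of 0.05 or below and 0 at the other 2. These stricter settings keep fewer peaks by construction, 26.3% of H3K27me3 and 14.3% of H3K79me2 peaks at q of 0.05 or below. No paired analysis was possible because each mark has 1 library. Depth, and with it the smallest detectable peak, is unknown.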
